A study of Homo sapiens with 5 samples.

Results

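A group of 10 enzymes that make amino acids or carry single-carbon units on folate was examined in HEK293T, an established human cell line derived from embryonic kidney and transformed with the large T antigen. They were PHGDH, PSAT1, PSPH, SHMT2, MTHFD2, ALDH1L2, ASNS, PYCR1, BCAT1 and CTH, which is 10 of the 19716 genes with a read in any library. The genes were chosen by their function after their levels in all 5 libraries were known, so every level and ratio given here is a description and none carries a test. Each was matched by its gene symbol, all 10 had a mean of at least 1 TPM (a read count per transcript length, scaled to the same sum in every library), and 13921 genes of the series passed that filter.

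The cells of 4 libraries were given 5 sgRNAs against the promoter of uPA (PLAU) and 1 of 4 fusions of dCas9, a Cas9 without nuclease activity, with a blue fluorescent protein (BFP). Its partner was a DNA methyltransferase domain in dCas9-BFP-DNMT1, in dCas9-BFP-DNMT3A and in dCas9-BFP-DNMT3B, and a green fluorescent protein in dCas9-BFP-EGFP. The methyltransferase domains were the catalytic ones, of which those of DNMT3A and DNMT3B methylate DNA de novo and that of DNMT1 belongs to the maintenance enzyme, while EGFP has no such activity. The control cells received pUC19, a plasmid without dCas9, sgRNA or BFP. All cells were transfected with 1 ug of plasmid DNA and harvested after 48 h, and the labels give the same sort for BFP to every group including the control, for which it is unclear how it was done. Each group had 1 library, so a difference between libraries has no replicate check, and a difference from pUC19 cannot be told apart from that of carrying dCas9, the sgRNAs, BFP or the sort.

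Serine is made from a glycolytic intermediate in 3 steps, by PHGDH, PSAT1 and PSPH. SHMT2 then passes a carbon of serine to folate in mitochondria, where MTHFD2 oxidises the folate-bound unit and ALDH1L2 can release it as carbon dioxide, and the units serve purine, thymidylate and methionine synthesis. ASNS makes asparagine, PYCR1 makes proline, BCAT1 transfers the amino group of leucine, isoleucine and valine, and CTH releases cysteine in the transsulfuration pathway. Many of these genes are known targets of ATF4, the transcription factor of the amino acid response, which binds composite C/EBP-ATF sites with the core TGATGNAA, and MYC, which binds the E-box CACGTG, is known to act on several of them.

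Promoter windows of 250 bases before to 50 after a start site (RefSeq, GRCh38.p14) matched 6 of the 10 genes: PHGDH, PSAT1, MTHFD2, ASNS, BCAT1 and CTH. PSPH, SHMT2, ALDH1L2 and PYCR1 had no match. The stretches below belong to ASNS and CTH, which had the largest ratios of the EGFP fusion to pUC19, and to BCAT1, which had the lowest values of the DNMT3A and DNMT3B fusions. For ASNS (chr7:97872409-97872658, minus strand) and CTH (chr1:70411018-70411267, plus strand) they are the 250 bases before the start site, and for BCAT1 (chr12:24949131-24949160, minus strand) 30 bases around a match; capitals mark TGATGNAA.
ASNS: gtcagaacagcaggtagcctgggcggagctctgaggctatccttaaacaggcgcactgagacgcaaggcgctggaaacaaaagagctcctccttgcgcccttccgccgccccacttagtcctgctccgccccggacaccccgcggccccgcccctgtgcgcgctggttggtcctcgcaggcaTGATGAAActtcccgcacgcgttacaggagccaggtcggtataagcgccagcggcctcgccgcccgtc
CTH: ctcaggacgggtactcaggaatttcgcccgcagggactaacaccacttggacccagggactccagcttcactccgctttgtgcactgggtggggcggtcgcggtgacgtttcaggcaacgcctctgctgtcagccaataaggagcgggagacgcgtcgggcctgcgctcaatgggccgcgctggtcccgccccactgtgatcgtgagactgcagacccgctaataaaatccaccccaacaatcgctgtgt
BCAT1: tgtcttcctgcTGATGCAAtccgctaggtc
Both strands were searched. TGATGNAA stood 68 bases before the start site of ASNS and 48 bases before 1 start site of BCAT1, so 2 of the 6 matched genes held it in a window, as did 3.62% of all 35116 windows and 4.46% of 27305 genes. CACGTG was met once, 14 bases after that same BCAT1 start site, so 1 of the 6 matched genes held it. It was held by 7.26% of all windows and 8.77% of the 27305 genes. BCAT1 had 5 windows and ASNS 2, and neither set of letters was in the other windows of the 6 genes. The stretch before ASNS held 24 CpG dinucleotides and that before CTH 20, but DNA methylation at these sites was not analysed here.

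The libraries held 26.2 (EGFP fusion) to 36.1 (pUC19) times 1000000 reads on genes, and the 10 enzymes had 1047 to 23225 reads each in a library, so that counting error was small beside most differences. Intervals below are 95% exact (Clopper-Pearson) intervals of a ratio of reads and cover counting error only. PLAU, the targeted gene, had 6 reads in the DNMT1, 6 in the DNMT3A, 1 in the DNMT3B and 4 in the EGFP fusion library and 106 in pUC19. The rows of the 3 methyltransferases, which also count the plasmid transcripts, took 3.23% to 6.02% of the reads in the methyltransferase libraries and 0.0489% in the EGFP fusion library. All 8 HEK293T markers examined (VIM, KRT8, KRT18, NEFL, NEFM, INA, PAX2 and LHX1) were above 1 TPM on average. Of them 2 (NEFL and NEFM) were past 2-fold lower than in pUC19 in all 4 fusion libraries, as were 1.52% of all genes. INA was past 2-fold higher with DNMT3B, as were 6.16% of all genes. The HEK293T markers summed to 772 to 967 TPM, and 8 markers of blood, connective tissue, vessel and liver cells to 6.92 to 10.4 TPM. Of these other markers only COL1A1 was above 1 TPM on average, and it was lower with DNMT3A than in pUC19 (log2 -1.02). CD3E was at 0 in every library and DCN at 0.19 TPM or less. With bulk RNA, a level that differs in every cell and one that differs in a share of the cells cannot be told apart.

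As a group the enzymes were most abundant in the EGFP fusion library and least abundant in the DNMT3A and DNMT3B fusion libraries. Their summed level was 4061 TPM with dCas9-BFP-EGFP, 2919 with dCas9-BFP-DNMT1, 2648 with pUC19, 2369 with dCas9-BFP-DNMT3A and 2284 with dCas9-BFP-DNMT3B. The sum in the EGFP fusion library was 1.53 times that in pUC19 and 1.78 times that in the DNMT3B fusion library. In shares of reads, the 10 genes took 0.421% (95% exact binomial interval 0.418 to 0.423) with EGFP against 0.221% (0.219 to 0.223) with DNMT3B. Of the 10 enzymes 9, all but PYCR1, had their highest level in the EGFP fusion library, which 21.1% of all genes tested did. In turn 7 of 10 had their 2 lowest levels in the DNMT3A and DNMT3B fusion libraries, which 17.8% of all genes tested did. These libraries were next to each other in the order of levels for all 10 enzymes, and for 66.8% of all genes.

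**Figure D1:**
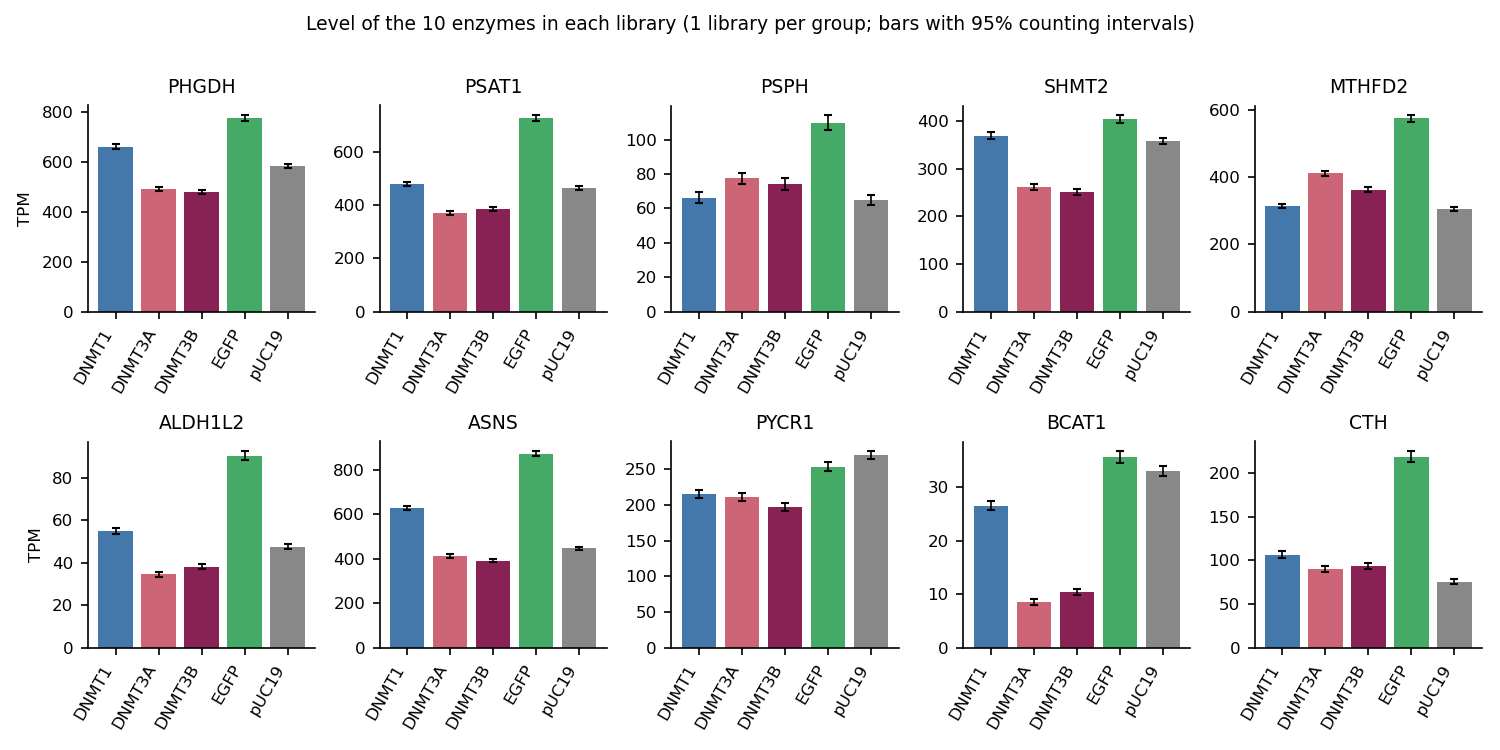
Level of each enzyme in TPM (y axis, from 0) in the 5 libraries (x axis, named by fusion partner or pUC19), with bars for the single library of each group and whiskers for 95% counting intervals. The EGFP fusion library is the highest in 9 of the 10 panels, and BCAT1 is at 8.49 and 10.4 TPM in the DNMT3A and DNMT3B fusion libraries against 26.6 to 35.6 TPM in the other libraries.

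Of the serine synthesis genes PHGDH and PSAT1 were among the most abundant of the group, and they had the same order of libraries but for the DNMT3A and DNMT3B fusions. PHGDH (NCBI gene 26227, GRCh37 chr1:120191034-120286841, plus strand), which commits a glycolytic intermediate to serine, had 661 TPM in the DNMT1, 491 in the DNMT3A, 479 in the DNMT3B and 775 in the EGFP fusion library and 584 TPM in pUC19. Its level with EGFP was 1.33 times (1.30 to 1.36) that in pUC19, and with DNMT3A and DNMT3B it was 1.19 times (1.16 to 1.22) and 1.22 times (1.19 to 1.25) lower than in pUC19. PSAT1 (29968, chr9:80912041-80945009, plus strand), the transaminase of the pathway, had 478 TPM (DNMT1), 371 TPM (DNMT3A), 386 TPM (DNMT3B), 726 TPM (EGFP) and 463 TPM (pUC19). The EGFP fusion thus stood apart from the other libraries further for PSAT1 than for PHGDH, 1.57 times (1.54 to 1.60) above pUC19, and the ratio of PHGDH to PSAT1 within a library was lowest there, at 1.07 (1.05 to 1.09) against 1.24 to 1.38 in the other libraries.

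PSPH (5723, chr7:56078744-56119297, minus strand), the phosphatase of the last step, was much less abundant and had another order. It had 66.2 TPM in the DNMT1, 77.4 in the DNMT3A, 74.4 in the DNMT3B and 109.8 in the EGFP fusion library and 64.8 TPM in pUC19. The EGFP value was 1.70 times (1.60 to 1.80) that of pUC19, but the DNMT3A and DNMT3B values were also above pUC19, by 1.20 times (1.13 to 1.27) and 1.15 times (1.08 to 1.22). The DNMT1 fusion and pUC19 did not differ beyond counting error, with a ratio of 1.02 (0.959 to 1.09). PSAT1 was 7.23 times as abundant as PSPH with DNMT1, 7.15 times in pUC19 and 6.61 times with EGFP, and 4.80 times with DNMT3A and 5.18 times with DNMT3B.

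All 3 mitochondrial folate enzymes were highest with EGFP. SHMT2 and ALDH1L2 had the same order of libraries but for the DNMT3A and DNMT3B fusions, and MTHFD2 had another. SHMT2 (6472, chr12:57623356-57628718, plus strand), which moves a carbon from serine to folate, had 370 TPM (DNMT1), 262 TPM (DNMT3A), 251 TPM (DNMT3B), 405 TPM (EGFP) and 358 TPM (pUC19). It was 1.37 times (1.33 to 1.41) lower with DNMT3A and 1.42 times (1.38 to 1.47) lower with DNMT3B than in pUC19, while the EGFP value was only 1.13 times (1.10 to 1.16) that of pUC19. MTHFD2 (10797, chr2:74413299-74444692, plus strand), the dehydrogenase and cyclohydrolase that follows it, had 314 TPM (DNMT1), 412 TPM (DNMT3A), 364 TPM (DNMT3B), 576 TPM (EGFP) and 306 TPM (pUC19). MTHFD2 was thus higher with DNMT3A and DNMT3B than in pUC19, by 1.34 times (1.31 to 1.38) and 1.19 times (1.15 to 1.22), where SHMT2 was lower. The ratio of MTHFD2 to SHMT2 within a library lay on either side of 1: it was 0.849 (0.826 to 0.873) with DNMT1 and 0.856 (0.835 to 0.878) in pUC19, and 1.57 (1.53 to 1.62) with DNMT3A, 1.45 (1.40 to 1.49) with DNMT3B and 1.42 (1.39 to 1.46) with EGFP.

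ALDH1L2 (160428, chr12:105413562-105501421, minus strand), the formyltetrahydrofolate dehydrogenase of mitochondria, had the widest spread of the 3. Its levels were 54.9 TPM (DNMT1), 34.65 TPM (DNMT3A), 38.2 TPM (DNMT3B), 90.6 TPM (EGFP) and 47.5 TPM (pUC19). The EGFP value was 1.90 times (1.84 to 1.97) that of pUC19, and those of DNMT3A and DNMT3B were 1.37 times (1.31 to 1.43) and 1.24 times (1.19 to 1.30) lower than it. No 2 libraries next to each other in the order of ALDH1L2 levels had an interval of their ratio that held 1.

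The paralogues of these enzymes were read beside them. MTHFD1, the cytosolic enzyme that carries the 3 folate interconversions in 1 protein, had 175 TPM (DNMT1), 214 TPM (DNMT3A), 210 TPM (DNMT3B), 171 TPM (EGFP) and 345 TPM (pUC19), so that it was lower in all 4 fusion libraries. MTHFD2 was therefore 3.37 times (3.28 to 3.47) as abundant as MTHFD1 with EGFP and 0.888 times (0.868 to 0.909) in pUC19, and 1.73 to 1.92 times in the 3 other fusion libraries. SHMT1, the cytosolic counterpart of SHMT2, was also highest in pUC19, with 47.9 TPM (DNMT1), 49.3 TPM (DNMT3A), 44.6 TPM (DNMT3B), 55.4 TPM (EGFP) and 69.7 TPM (pUC19). Of the other mitochondrial genes, MTHFD1L, which makes formate, had 147.8 TPM with EGFP and 106 to 113 TPM elsewhere, and MTHFD2L had 2.95 to 4.19 TPM. ALDH1L1, the cytosolic form of ALDH1L2, had 0 to 2 reads in each library.

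**Figure D2:**
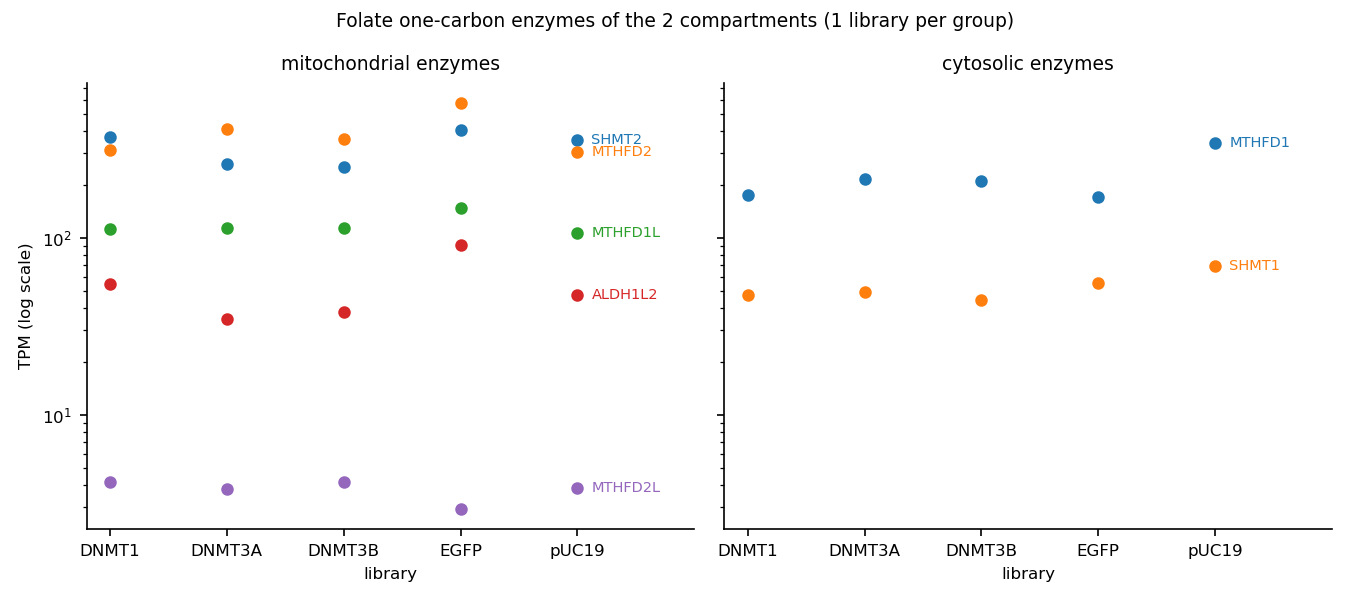
Levels in TPM (y axis, log scale) of folate enzymes of mitochondria (left) and cytosol (right) in the 5 libraries (x axis), with 1 point per library. MTHFD2 lies above SHMT2 in the DNMT3A, DNMT3B and EGFP fusion libraries and below it in the others, and MTHFD1 is at 345 TPM in pUC19 and at 171 to 214 TPM in the fusion libraries.

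ASNS and CTH had the 2 highest ratios of the EGFP fusion to pUC19. ASNS (440, chr7:97480989-97501854, minus strand), whose stretch before the start site is shown above with its TGATGNAA match, had 627 TPM (DNMT1), 412 TPM (DNMT3A), 391 TPM (DNMT3B), 871 TPM (EGFP) and 446 TPM (pUC19). It was 1.95 times (1.91 to 1.99) as abundant with EGFP and 1.40 times (1.38 to 1.43) as abundant with DNMT1 as in pUC19, and 1.08 times (1.06 to 1.11) and 1.14 times (1.11 to 1.17) lower with DNMT3A and DNMT3B. ASNS was the third most abundant of the 10 enzymes in pUC19, the second in the 3 methyltransferase libraries and the first in the EGFP fusion library.

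CTH (1491, chr1:70876901-70905534, plus strand) was the only one of the 10 past 2-fold with EGFP. It had 106 TPM (DNMT1), 89.6 TPM (DNMT3A), 93.2 TPM (DNMT3B), 219 TPM (EGFP) and 75.1 TPM (pUC19). The EGFP value was 2.91 times (2.78 to 3.05) that of pUC19, a log2 ratio of 1.54 that 122 of the 13921 genes exceeded. The other fusion libraries were above pUC19 as well, by 1.41 times (1.34 to 1.49) with DNMT1, 1.19 times (1.13 to 1.26) with DNMT3A and 1.24 times (1.17 to 1.31) with DNMT3B. CBS, which acts before CTH in transsulfuration, had 455 TPM (DNMT1), 349 TPM (DNMT3A), 287 TPM (DNMT3B), 509 TPM (EGFP) and 342 TPM (pUC19), and was thus highest in the same library with a smaller ratio to pUC19 (log2 0.57).

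PYCR1 (5831, chr17:79890260-79900288, minus strand), which makes proline in mitochondria, was the only one of the 10 that was not highest with EGFP. It had 215 TPM (DNMT1), 211 TPM (DNMT3A), 198 TPM (DNMT3B), 254 TPM (EGFP) and 269.8 TPM (pUC19), and was therefore highest in the control. The EGFP fusion was 1.06 times (1.03 to 1.10) and the other fusions 1.25 to 1.36 times lower than pUC19. Its cytosolic paralogue PYCRL had 20.7 to 33.5 TPM.

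BCAT1 (586, chr12:24962958-25102035, minus strand), the cytosolic branched-chain transaminase, was the least abundant of the 10 and had the largest difference among the fusions. It had 26.6 TPM (3187 reads) with DNMT1, 8.49 TPM (1047 reads) with DNMT3A, 10.4 TPM (1130 reads) with DNMT3B, 35.6 TPM (3892 reads) with EGFP and 33.1 TPM (5106 reads) in pUC19. The DNMT3A and DNMT3B values were 3.86 times (3.64 to 4.17) and 3.17 times (2.99 to 3.41) lower than pUC19, and the DNMT3B value was 2.57 times (2.40 to 2.75) lower than the DNMT1 value, the next above it. The DNMT1 fusion was itself 1.24 times (1.19 to 1.30) lower than pUC19, and the EGFP fusion was 1.08 times (1.03 to 1.12) above it. BCAT2, the mitochondrial paralogue, had 73.7 to 85.3 TPM in the 5 libraries and was likewise lowest with DNMT3A and DNMT3B, but by less, so that BCAT1 made up 10.3% and 12.0% of the sum of both with DNMT3A and DNMT3B and 23.8% to 29.9% in the others. The part of the transcript with a read was also lowest for BCAT1, at 61.74% with DNMT3A and 71.78% with DNMT3B against 84.45% to 93.78% elsewhere. The other 9 enzymes were covered over at least 88.32% in every library. Coverage depends on the number of reads, and BCAT1 had its fewest reads with DNMT3A and DNMT3B. Its lower coverage there is therefore no separate sign of a difference. BCAT1 had the lowest GC content of the group (37.1%) and the longest transcript (9682 bases). With the trends over GC content and length across all genes removed, its log2 ratios to pUC19 were -1.67 with DNMT3A and -1.60 with DNMT3B, instead of -1.95 and -1.66.

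Against pUC19, few of the enzymes passed a 2-fold difference, the fold stated for the study. In the EGFP fusion library 1 of 10 was past 2-fold higher (CTH), as were 3.58% of all genes, and 0 were past 2-fold lower (4.13% of genes). ASNS, ALDH1L2 and MTHFD2 lay just under that line at 1.95, 1.90 and 1.88 times. In the DNMT3A and DNMT3B fusion libraries BCAT1 alone was past 2-fold lower, where 6.11% and 5.38% of genes were, and none was past 2-fold higher (5.88% and 6.16%). With DNMT1 none was past 2-fold in either direction (2.08% of genes were higher and 4.88% lower), the ratios running from 0.797 to 1.41. No enzyme passed 2-fold in the same direction in all 4 fusion libraries (0.812% of genes were higher in all and 1.52% lower); at any size, 3 of 10 (PSPH, MTHFD2 and CTH) were higher in all 4 than in pUC19, against 23.7% of genes, and 1 (PYCR1) was lower, against 32.7%.

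The medians placed the group as a whole. Its median log2 ratio to pUC19 was 0.71 with EGFP, where the median of all genes was -0.003, and 9 of 10 were above 0 (49.7% of all genes). With DNMT3A and DNMT3B the medians were -0.28 and -0.28 (all genes -0.02 and -0.01), with 3 of 10 above 0 in each (48.8% and 49.0% of all genes). With DNMT1 the median was 0.05 and 8 of 10 were above 0 (37.4% of all genes), in a library whose median over all genes was -0.14. That shift depended on the scaling: with TMM factors the all-gene median of the DNMT1 fusion was -0.01, and the enzymes ran from -0.20 (PYCR1) to 0.63 (CTH). The 4 ratios share the pUC19 library.

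**Figure D3:**
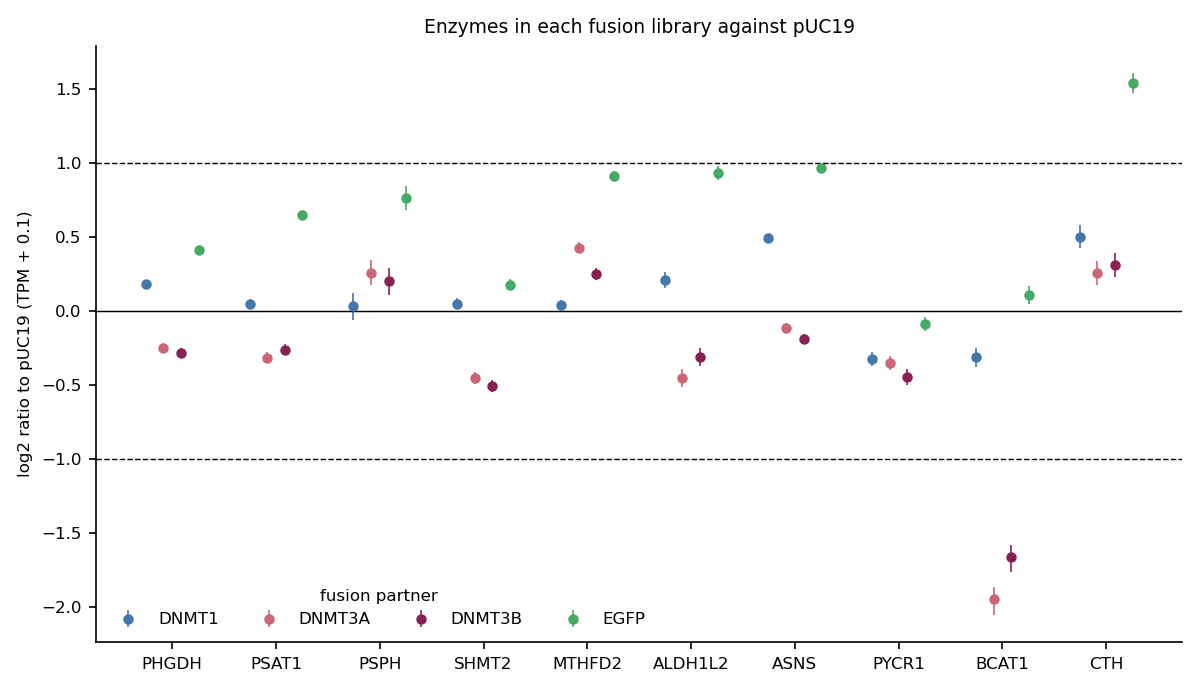
Log2 ratio to pUC19 of TPM + 0.1 (y axis) of each enzyme (x axis) in the 4 fusion libraries (colours), with 95% counting intervals and dashed lines at a 2-fold difference. Only CTH with EGFP and BCAT1 with DNMT3A and DNMT3B lie outside the dashed lines.

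Between the fusions, the DNMT3A and DNMT3B libraries were set against the DNMT1 and EGFP libraries. All 10 enzymes had a lower mean log2 level in the first pair (43.3% of all genes did), with a median difference of -0.62 against 0.06 for all genes. For 8 of 10 both libraries of the first pair lay below both of the second, which 23.3% of genes did; MTHFD2 and PSPH overlapped, since their DNMT1 values were the lower ones. BCAT1 was past 2-fold (1.03% of genes were lower and 2.03% higher), at a log2 difference of -1.70, and 38 of the 13921 genes had a lower value. ALDH1L2 (-0.95), ASNS (-0.88) and CTH (-0.74) followed, then PSAT1 (-0.64), SHMT2 (-0.59) and PHGDH (-0.56), with PYCR1 (-0.19), PSPH (-0.17) and MTHFD2 (-0.14) nearest to 0. The 8 HEK293T markers summed to 967 and 942 TPM in the first pair and 772 and 789 TPM in the second. Their median log2 difference was 0.30, against 0.06 for all genes, and their part in the differences of the enzymes was not tested.

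These counts depended on which library stood for the second pair. Against EGFP alone, 4 enzymes were past 2-fold lower (ALDH1L2, ASNS, BCAT1 and CTH; 2.28% of genes), and against DNMT1 alone only BCAT1 (1.20% of genes). With DNMT3A alone in the first pair, ALDH1L2 and BCAT1 passed (1.72% of genes), and with DNMT3B alone BCAT1 (1.31%). All 10 enzymes were lower with DNMT1 than with EGFP, as were 66.4% of all genes, with a median log2 ratio of -0.54 against -0.13. Of them CTH alone was past 2-fold there (1.94% of genes were lower), at 2.06 times (1.97 to 2.16). With TMM scaling CTH was no longer past 2-fold (log2 -0.90) and SHMT2 turned from -0.13 to 0.01.

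The DNMT3A and DNMT3B fusion libraries were also set against each other. None of the enzymes was past 2-fold between them, where 0.603% of genes were higher and 0.690% lower with DNMT3A. The median size of the log2 ratio was 0.07 over the enzymes and 0.13 over all genes, and the largest was 0.28, for BCAT1, against a 95th percentile of 0.56 over all genes. For PSPH and CTH the interval of the ratio held 1. Over the 10 enzymes, 5 of 40 pairs of libraries next to each other in the order of levels had an interval that held 1.

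**Figure D4:**
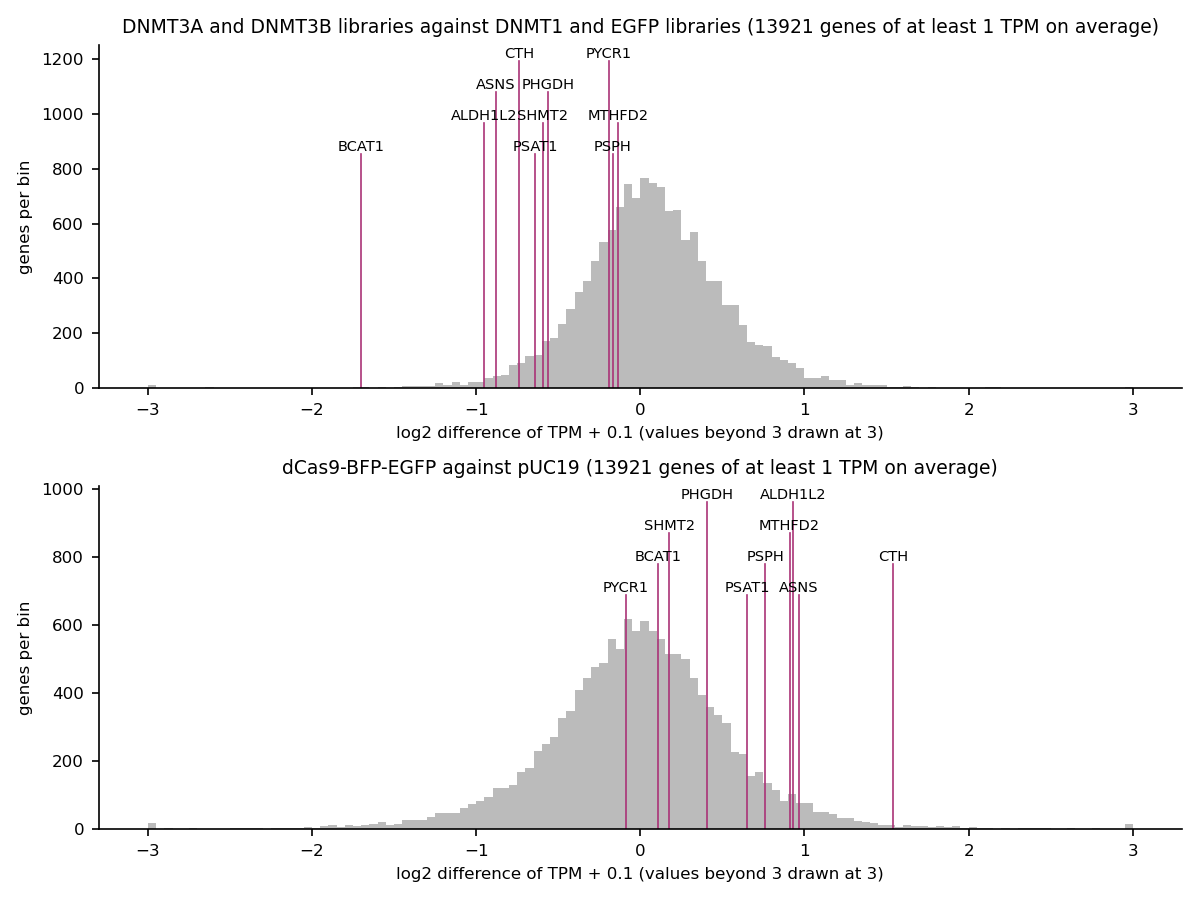
Distribution over 13921 genes (grey bars, genes per bin) of the log2 difference between the DNMT3A and DNMT3B and the DNMT1 and EGFP libraries (top) and between dCas9-BFP-EGFP and pUC19 (bottom), with the 10 enzymes as lines. All 10 lie below 0 in the top panel, from -0.14 for MTHFD2 to -1.70 for BCAT1, and all but PYCR1 lie above 0 in the bottom one.

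Among themselves the enzymes fell into a few like patterns over the 4 log2 ratios to pUC19. PSPH and MTHFD2 were the closest pair, with a root mean square distance of 0.11, followed by PHGDH and PSAT1 (0.14) and PSAT1 and ALDH1L2 (0.18). ASNS was closest to ALDH1L2 (0.23), and PYCR1 to SHMT2 (0.24). BCAT1 stood furthest from the rest, 0.96 from its nearest enzyme, SHMT2, and CTH was 0.40 from MTHFD2. Of 10934 genes with a mean of at least 5 TPM, those nearest to CTH, the enzyme with the highest mean ratio, were UNC119B (0.16), PRKAB2 (0.21) and TDRKH (0.22), and those nearest to BCAT1, with the lowest, were LINC00641 (0.32), MAP2K6 (0.33) and GLRX (0.34). The likeness is over 4 ratios that share 1 control library.

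Other genes of the same pathways were read from 5 lists that leave out the 10 enzymes. Of 23 further genes of serine and glycine synthesis and the folate cycle above 1 TPM, 2 were past 2-fold higher with EGFP (3.58% of all genes). AMT of glycine cleavage was among them, and 1 gene was past 2-fold lower (MTHFD1), as were 4.13% of all genes. The median log2 ratio of the 23 was -0.33 with EGFP, and 4 of them were highest in that library, as were 21.1% of all genes. AMT was also past 2-fold higher with DNMT1 (2.08% of all genes). It was past 2-fold lower with DNMT3A and DNMT3B than with DNMT1 and EGFP (log2 -1.13), as were 1.03% of all genes. Its levels were 0.79 to 2.22 TPM in the 5 libraries. In each of the 3 methyltransferase libraries 2 of 23 were past 2-fold lower, among them GCSH of glycine cleavage. The shares of all genes were 4.88% (DNMT1), 6.11% (DNMT3A) and 5.38% (DNMT3B). GCSH had 31.9 TPM (DNMT1), 23.6 TPM (DNMT3A), 27.0 TPM (DNMT3B) and 37.7 TPM (EGFP) against 69.3 TPM in pUC19.

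Of 15 genes of the methionine cycle and transsulfuration, 1 was past 2-fold against pUC19, higher with DNMT3B (6.16% of all genes). It was GCLM, a subunit of the first enzyme of glutathione synthesis, and the medians of the list ran from -0.34 to -0.13. Of 19 genes of proline, glutamate, aspartate and arginine metabolism, GPT2, an alanine transaminase, was past 2-fold higher with EGFP (3.58% of all genes). It had 155.7 TPM there against 60.4 TPM in pUC19. None of the 19 was past 2-fold with DNMT1, while 4 were lower with DNMT3A (6.11% of all genes), among them OAT, ASL and CPS1. With DNMT3B 2 were lower (ASL and CPS1), as were 5.38% of all genes. NAGS, which makes the activator of CPS1, was past 2-fold higher in the DNMT3A and DNMT3B than in the DNMT1 and EGFP libraries (log2 1.23). The share of all genes was 2.03%, and NAGS had 0.85 to 2.77 TPM.

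Of 15 genes of branched-chain amino acid breakdown, the pathway that BCAT1 and BCAT2 feed, only HIBADH was past 2-fold lower in all 4 fusion libraries. The share of all genes was 1.52%. HIBADH, a dehydrogenase of valine breakdown, had 28.6 TPM (DNMT1), 17.9 TPM (DNMT3A), 17.8 TPM (DNMT3B), 26.7 TPM (EGFP) and 62.9 TPM (pUC19). BCKDHB, a subunit of the next enzyme after the transaminases, was past 2-fold lower with DNMT3A and DNMT3B and MCCC1 of leucine breakdown with DNMT3A. With HIBADH, 3 of 15 were past 2-fold lower with DNMT3A and 2 of 15 with DNMT3B, where 6.11% and 5.38% of all genes were. In 10 of these 15 genes both DNMT3A and DNMT3B lay below both DNMT1 and EGFP, as in 23.3% of all genes, and none was past 2-fold in that comparison. In the serine, glycine and folate list 7 of 23 genes lay so and 9 the other way round. The median log2 difference of that list was 0.10, against 0.06 for all genes. These counts were 5 and 2 of 15 for the methionine list, 9 and 4 of 19 for the proline list, and 4 and 3 of 14 for purines and pyrimidines. The share of all genes that lay the other way round is not given, so the second count of each list has no background. A higher mean log2 level in the DNMT3A and DNMT3B libraries, overlapping or not, was met in 56.7% of all genes. Of 14 purine and pyrimidine synthesis genes, DHODH was past 2-fold lower with EGFP (4.13% of all genes) and ADSSL1 with DNMT3A (6.11%). ADSSL1 was also past 2-fold lower between the pairs (log2 -1.12), as were 1.03% of all genes. It was past 2-fold lower with DNMT3A than with DNMT3B as well (0.690% of all genes), so these 2 libraries differed for it. The medians of the list against pUC19 ran from -0.51 to -0.30. Genes of these 5 lists other than the paralogues of the enzymes, CBS, AMT, NAGS, HIBADH and ADSSL1 were named after their values were seen.

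ATF4 shared its order of libraries with PSPH and MTHFD2, in part among libraries that counting error did not separate. The interval of the ratio of DNMT1 to pUC19 held 1 for both enzymes, and that of DNMT3A to DNMT3B held 1 for PSPH. ATF4 had 1251 TPM (DNMT1), 1511 TPM (DNMT3A), 1474 TPM (DNMT3B), 1635 TPM (EGFP) and 1210 TPM (pUC19). Like PSPH and MTHFD2 but unlike the other 8 enzymes, it was higher with DNMT3A and DNMT3B than with DNMT1. Of 16 regulators and stress genes of the amino acid response, 3 were past 2-fold higher in all 4 fusion libraries (TRIB3, NUPR1 and PPP1R15A). The share of all genes was 0.812%. The median log2 ratio of the 16 genes to pUC19 was 0.43 (DNMT1), 0.51 (DNMT3A), 0.61 (DNMT3B) and 0.81 (EGFP). That of the enzymes was 0.05 (DNMT1), -0.28 (DNMT3A), -0.28 (DNMT3B) and 0.71 (EGFP). With DNMT3A and DNMT3B the median regulator was thus above pUC19 and the median enzyme below it. The part of the regulators and stress genes in the levels of the enzymes was not tested. MYC had 387 TPM in pUC19 and 65.5 to 88.2 TPM in the fusion libraries, and NFE2L2 had 52.8 TPM in pUC19 and 56.8 to 90.4 TPM in the fusion libraries.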

How the data were processed

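Poly(A) RNA of HEK293T cells was sequenced on an Ion Proton, with 5 libraries and 1 per group, and groups were taken from the sample titles. Per the study's methods, the authors removed reads of low quality, with adaptor or too short, aligned the rest with tmap (version not given in the sources used here) to RefSeq RNA of hg19 with a limit on mismatches, and kept unique alignments. The read counts deposited by the authors are whole reads per gene without further scaling. TPM, as deposited by the authors, is the count over gene length, scaled to a sum of 1000000 per library, and recomputing it gave the same values. The coverage deposited by the authors in percent was not defined and was read as the part of a transcript with a read. Genes absent from a table were set to 0, and 36 rows without a symbol took at most 0.00581% of reads. Counting unique reads can lower genes with near-identical copies, which was not tested for the enzymes.

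With 1 library per group no test of a condition was made. Ratios are of TPM + 0.1, which understates differences of low genes, with exact conditional binomial (Clopper-Pearson) intervals from the reads (scipy 1.17.1). A gene was called past 2-fold among genes with a mean of at least 1 TPM; between pairs of libraries both of 1 pair had to lie beyond both of the other. Scripts were tested on simulated data. The enzymes, lists and rules were chosen with earlier results of these data known. Genes named were the 10 enzymes, their paralogues, ATF4, MYC and NFE2L2, listed genes past 2-fold in all 4 fusions or between the pairs, and the 3 genes nearest to the enzymes of highest and lowest mean ratio; other names were added after values were seen. Some genes that these rules would name are not reported here. Positions are from GENCODE on GRCh37. Other settings tried were TMM scaling (edgeR 4.0.16), 1 TPM as the pseudocount, the methyltransferase rows left out, no filter, a mean of at least 5 TPM, an adjusted p of at most 0.001 in an exact test of the reads of 2 libraries as well (which compares those libraries, not the conditions), and removal of GC and length trends (lowess, span 0.3; 90.7% of genes and all 10 enzymes had a GC value).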

Additional observations from a re-analysis of the deposited data

How the results depend on the processing

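No paired analysis was possible because each group had 1 library and the labels give no replicate to pair, and for the same reason no replicate could be left out. Of the 7 other settings tried, TMM scaling and removal of the GC and length trends changed the number of enzymes past 2-fold in 1 comparison: for dCas9-BFP-DNMT1 against dCas9-BFP-EGFP it was 0 under both, where CTH had log2 ratios of -0.90 and -0.86 instead of -1.04. The other 7 counts were the same under all 7, and the count for all 4 fusions was also 0 without any 1 fusion. Chosen after seeing the data, leaving out a library changed the count between the pairs to 4 without DNMT1 and 2 without DNMT3B, and left it at 1 without DNMT3A or EGFP. Of 70 single ratios, 27 moved beyond their counting interval with TMM scaling and 48 with the GC and length trends removed, by up to 0.32 in log2. One changed sign, SHMT2 in DNMT1 against EGFP with TMM scaling. The BCAT1 log2 ratio of DNMT3A to pUC19 was -1.84 with a pseudocount of 1 TPM and -1.67 with the GC and length trends removed. Counts over all genes moved more. In the order DNMT1, DNMT3A, DNMT3B and EGFP fusion against pUC19, then between the pairs, DNMT1 against EGFP, DNMT3A against DNMT3B and all 4 fusions, 968, 1669, 1607, 1074, 426, 410, 180 and 324 genes were past 2-fold. Without the filter these were 2346, 3079, 3015, 2428, 951, 1629, 1139 and 658, and at a mean of at least 5 TPM 473, 1031, 991, 602, 216, 129, 19 and 173. With a pseudocount of 1 TPM they were 592 (DNMT1), 678 (EGFP), 235 (pairs), 199 (DNMT1 against EGFP), 79 (DNMT3A against DNMT3B) and 193 (all 4), with the exact test 270 (pairs), 226 (DNMT1 against EGFP) and 35 (DNMT3A against DNMT3B), and with the GC and length trends removed 261 (DNMT1 against EGFP), the others staying within 1.5 times. Without the DNMT1 library they were 699 (pairs) and 511 (all 4), and without the EGFP library 641 (pairs). TMM scaling changed the split of higher and lower genes from 289 and 679 to 383 and 475 for DNMT1 against pUC19, and from 140 and 270 to 214 and 175 for DNMT1 against EGFP. The depth of the libraries does not show how much a repeat transfection would vary.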
